A study of Homo sapiens with 6 samples.

Results

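Androgen metabolism in 22RV1 cells was followed through the mRNAs of 10 genes that make or inactivate androgens, taken by their symbols from the 26255 genes listed in every sample. They are the aldo-keto reductases AKR1C1, AKR1C2 and AKR1C3, the steroid reductases SRD5A1 and SRD5A3, the hydroxysteroid dehydrogenases HSD17B4, HSD17B11 and HSD17B12, and the glucuronosyltransferases UGT2B15 and UGT2B17. All 10 symbols were found in the files. The cells were treated for 24 h with DMSO, the vehicle (3 samples), or with 10 nM bruceantin (BCT), a plant quassinoid (3 samples), and RNA was then sequenced. Both groups were grown in full medium with fetal bovine serum, so the steroids of serum were present in both. 22RV1 is an established human line of castration-resistant prostate cancer (CRPC). It stands here as 1 cell line, and the labels do not say whether the 3 samples of a group came from separate cultures, so p-values measure the spread between these samples, which may be technical.

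With BCT the mRNA of both steroid reductases fell, SRD5A1 to 40.3% and SRD5A3 to 52.9% of its DMSO level. Both calls were lost when samples were rescaled to equal FPKM sums (log2 fold changes of -0.54 and -0.15). They were kept under upper quartile scaling, median of ratios scaling and quantile normalization. AKR1C1 and AKR1C2 were higher by 1.60-fold and 1.62-fold, and AKR1C3, the most abundant of the 3 AKR1C genes, stayed within 0.22 on the log2 scale of its DMSO level by the 95% interval. HSD17B4, HSD17B11 and UGT2B15 were lower and HSD17B12 was higher by amounts under the fold threshold of the study. The signs of HSD17B4, HSD17B11, UGT2B15 and AKR1C3 turned under the rescaling to equal FPKM sums. UGT2B17 was near zero, with a mean under 1 FPKM over the 6 samples. It was the only one of the 10 in that range.

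The supply of potent androgens to a cell runs along routes that these enzymes open and close. Weak precursors are reduced to testosterone by enzymes such as AKR1C3, and steroid 5-alpha reductases turn testosterone into dihydrotestosterone (DHT), the strongest natural androgen. AKR1C2 reduces DHT to a weak androstanediol, and some hydroxysteroid dehydrogenases oxidize active hormones back to less active ketones. Others, among them HSD17B12, are reductases. UGT2B15 and UGT2B17 attach glucuronic acid to DHT and its metabolites, which ends their activity in prostate cells. Several of the enzymes also have tasks outside of steroid metabolism, among them the chain elongation and breakdown of fatty acids and the synthesis of dolichol.

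The AKR1C genes and the UGT2B genes are families of near-copies, which limits how well short reads can be assigned to one of them, and their sequences are shown for that reason. Over the coding sequence, 98.0% of the bases of AKR1C1 and AKR1C2 were identical (19 of 969 differed), against 91.4% for AKR1C1 and AKR1C3 and 91.0% for AKR1C2 and AKR1C3. The first 60 coding bases are printed from the GRCh37 genome with the GENCODE coding starts, all in the first coding exon. In AKR1C1 the capitals mark the bases where AKR1C2 or AKR1C3 differs, and in the other genes they mark differences from AKR1C1. The stretches lie at chr10:5005637-5005696 on the plus strand, chr10:5045968-5046027 on the minus strand and chr10:5136637-5136696 on the plus strand.
AKR1C1: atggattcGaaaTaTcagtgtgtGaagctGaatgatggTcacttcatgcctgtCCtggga
AKR1C2: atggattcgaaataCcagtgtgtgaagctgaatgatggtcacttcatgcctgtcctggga
AKR1C3: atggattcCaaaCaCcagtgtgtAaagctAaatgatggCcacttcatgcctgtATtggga
In this stretch AKR1C2 differed from AKR1C1 at 1 base and AKR1C3 at 8. Stretches of 100 bases, the length of 1 read, were compared across the family. Of those in the coding sequence, 20.7% of AKR1C1, 26.4% of AKR1C2 and 9.77% of AKR1C3 also occurred in another gene. Over the whole transcript the shares were 12.6%, 27.8% and 7.82%. The reads came in pairs, and a pair covers more sequence than 1 stretch.

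UGT2B15 and UGT2B17 shared 96.5% of their coding bases (55 of 1590 differed), and 16.9% of the 100-base coding stretches of each occurred in the other. Over the whole transcript the shares were 12.4% for UGT2B15 and 10.6% for UGT2B17. Their first 60 coding bases, at chr4:69536277-69536336 and chr4:69434143-69434202 on the minus strand of GRCh37, differ at the 2 bases in capitals.
UGT2B15: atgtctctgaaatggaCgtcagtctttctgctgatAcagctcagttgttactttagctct
UGT2B17: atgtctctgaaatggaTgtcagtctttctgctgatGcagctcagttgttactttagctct
The deposited files list both genes with 1 and the same interval, bases 224704 to 249081 of an alternative chromosome 4 contig of hg19 (24378 bases), whereas GENCODE places UGT2B15 at chr4:69512315-69536370 and UGT2B17 at chr4:69402891-69442131. How reads that match more than 1 gene were shared out is not given in the sources used here. The split of reads between AKR1C1 and AKR1C2, and between UGT2B15 and UGT2B17, is therefore uncertain.

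The sequence before the start is near-identical in AKR1C1 and AKR1C2 and less so in AKR1C3. The 250 bases before the start (for AKR1C3, that of its canonical transcript) are printed from the RefSeq promoter table (GRCh38.p14), with capitals for the 19 bases that are the longest run common to all 3 genes.
AKR1C1: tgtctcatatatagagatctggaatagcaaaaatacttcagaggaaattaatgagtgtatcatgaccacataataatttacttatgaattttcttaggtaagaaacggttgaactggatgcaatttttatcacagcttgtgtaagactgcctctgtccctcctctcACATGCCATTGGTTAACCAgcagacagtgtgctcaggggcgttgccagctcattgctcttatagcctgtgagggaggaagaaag
AKR1C2: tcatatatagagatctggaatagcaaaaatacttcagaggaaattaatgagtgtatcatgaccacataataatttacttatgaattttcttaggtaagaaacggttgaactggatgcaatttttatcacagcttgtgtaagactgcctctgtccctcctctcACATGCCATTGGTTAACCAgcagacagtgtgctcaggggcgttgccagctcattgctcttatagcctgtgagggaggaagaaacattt
AKR1C3: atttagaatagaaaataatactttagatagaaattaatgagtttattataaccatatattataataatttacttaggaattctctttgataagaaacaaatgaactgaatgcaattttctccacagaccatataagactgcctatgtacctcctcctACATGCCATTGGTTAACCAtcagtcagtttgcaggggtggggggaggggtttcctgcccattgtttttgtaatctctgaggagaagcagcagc
These windows lie at chr10:4963165-4963414 on the plus strand, chr10:5003858-5004107 on the minus strand and chr10:5094164-5094413 on the plus strand. The AKR1C1 and AKR1C2 windows were 96.5% identical over their aligned columns and shared an unbroken run of 245 bases, whereas AKR1C3 was 69.5% identical to AKR1C1 and 70.2% to AKR1C2. The run in capitals begins 84 bases before the start of AKR1C1, 88 before that of AKR1C2 and 93 before that of AKR1C3. Windows of 300 bases, reaching 50 bases past the start, were found in that table for 8 of the 10 genes, not for HSD17B12 and UGT2B17, and were searched on both strands. The core of the element bound by NRF2, the factor that turns on oxidative stress genes, written TGACNNNGC, occurred in the windows of 1 of the 8 genes (SRD5A3), against 13.3% of all 35116 promoters in the table. A match is a description of the letters and not a binding site, and a missing match says nothing of a factor that binds elsewhere.

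FPKM values are fragments scaled by transcript length and by sequencing depth, and the reads behind each gene are not known from them. From the steps between low values, the BCT samples were 1.06 to 1.13 times and the DMSO samples 0.878 to 1 times as deep as DMSO replicate 1. The small RNA gene MIR6087 made up 43.5% to 55.3% of the FPKM sum with DMSO and 31.7% to 32.5% with BCT. The values were therefore used as deposited, and a rescaling to equal FPKM sums, which raises the median log2 fold change over the tested genes from -0.04 to 0.72 and turns the 2263 lower and 1764 higher calls into 668 and 5609, is given beside the results it changes. Correlations of log2 values across genes, which are not independent replicates, were 0.959 to 0.972 within the groups and 0.851 to 0.896 between them. All 7 luminal epithelial markers were above 1 FPKM, with sums of 1031 to 1034 FPKM with DMSO and 2023 to 2184 FPKM with BCT. The basal (3 genes) and endothelial (3 genes) markers were all under 0.25 FPKM. Of the markers of other cell types, only COL1A1 (1 of 4 stromal genes, 1.23 to 1.55 FPKM with DMSO and 5.04 to 6.31 FPKM with BCT), CD68 (1 of 3 immune genes, 2.05 to 3.16 FPKM and 4.95 to 8.16 FPKM) and ALB (1 of 3 hepatocyte genes, 388 to 416 FPKM and 57.2 to 68.9 FPKM) had a mean above 1 FPKM. The defining genes PTPRC, COL1A2 and APOB were under 0.1 FPKM in every sample.

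In DMSO-treated cells the 10 genes spanned a wide range in FPKM, a unit scaled by transcript length. HSD17B4 was the highest at 97.5 ± 4.22 FPKM (SD, n = 3), which put it at rank 1002 of all 26255 genes, followed by AKR1C3 (84.6 ± 5.54), HSD17B11 (61.0 ± 2.49), UGT2B15 (45.4 ± 2.18), HSD17B12 (27.2 ± 0.914) and SRD5A3 (23.1 ± 1.04). SRD5A1 (13.8 ± 0.842) and AKR1C2 (12.2 ± 0.826) came next with overlapping ranges, then AKR1C1 (8.24 ± 0.801) and UGT2B17 (0.709 ± 0.0911). Apart from SRD5A1 and AKR1C2, no neighbours in this order overlapped. With BCT the order was AKR1C3, HSD17B4, HSD17B11, UGT2B15, HSD17B12, AKR1C2, AKR1C1, SRD5A3, SRD5A1 and UGT2B17. HSD17B11 and UGT2B15, UGT2B15 and HSD17B12, and AKR1C1 and SRD5A3 overlapped there, and the others did not. AKR1C3 took the first place from HSD17B4, and SRD5A1 moved from above AKR1C1 to below it.

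**Figure D1:**
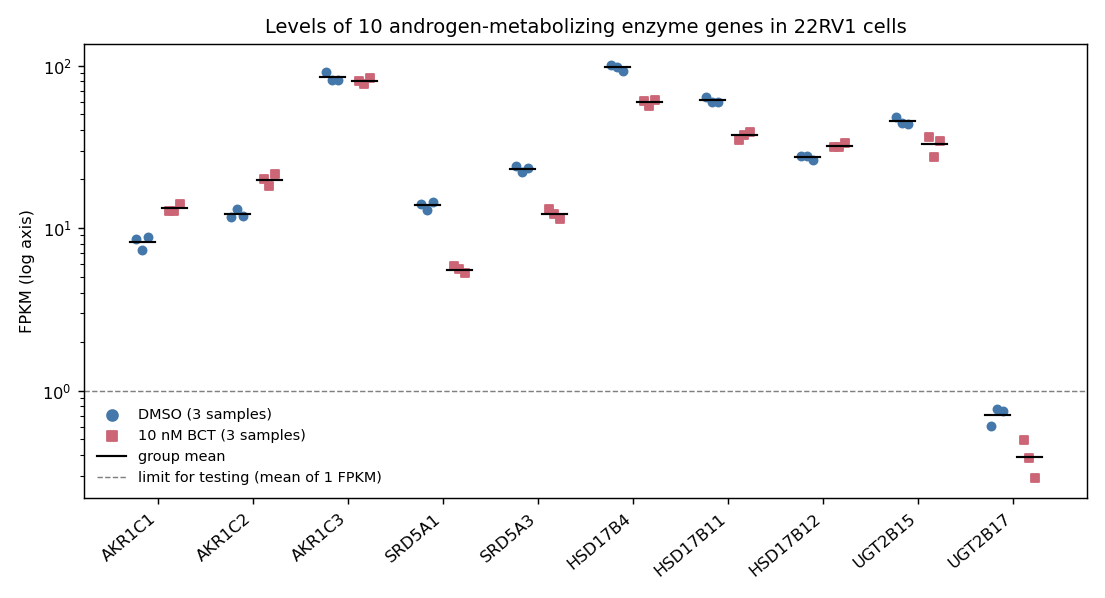
FPKM on a log axis of the 10 genes in the 3 DMSO (blue circles) and 3 BCT (red squares) samples, with the group means as bars and a dashed line at the mean of 1 FPKM below which a gene was not tested. The groups separate downward for SRD5A1, SRD5A3, HSD17B4, HSD17B11 and UGT2B15, upward for AKR1C1, AKR1C2 and HSD17B12, and overlap for AKR1C3, while UGT2B17 lies under the line in all samples.

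Differences were tested with limma on log2(FPKM + 0.1) over the 12729 genes whose mean reached 1 FPKM, with Benjamini-Hochberg adjustment over all of them, and calls required a log2 fold change beyond 0.85 in either direction and an adjusted p below 0.05. Of the 10 genes, 9 were tested, and 2 were called lower (22.2%) and none higher. Over all tested genes, 31.6% were called, 17.8% lower and 13.9% higher. The share of enzymes called was thus under that of all genes in either direction and over it in the lower direction, with only 2 calls behind it. The adjusted p alone was passed by 5 enzymes in the lower and 3 in the higher direction, against 42.8% and 39.3% of all genes (82.1% in either direction). The BCT and DMSO values of these 8 genes did not overlap, as for 85.3% of all genes. The median log2 fold change was -0.48 over the 9 enzymes and -0.04 over all genes. In bulk RNA, fewer cells of a type and less RNA per cell cannot be told apart.

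In the values as deposited, the steroid reductases had the largest log2 fold changes of the 9 tested enzymes, which did not hold after rescaling to equal FPKM sums with MIR6087 (AKR1C2 1.46, SRD5A1 -0.54) or without it (AKR1C2 1.08, SRD5A1 -0.91). SRD5A1, the reductase that makes DHT in many prostate cancer cells, is encoded at chr5:6633500-6669675 (hg19, plus strand). It measured 14.0, 12.8 and 14.5 FPKM with DMSO and 5.83, 5.56 and 5.28 FPKM with BCT. The lowest DMSO sample stood well above the highest BCT sample. In the fit it fell by 1.29 on the log2 scale (SE 0.068, 95% interval -1.45 to -1.14, limma adjusted p = 1.14e-06), a 2.45-fold difference. SRD5A3, which reduces polyprenol to dolichol for protein glycosylation and can also reduce steroids, is listed at chr4:56212388-56251747 (plus strand). GENCODE places the gene at chr4:56212380-56239267. SRD5A3 measured 24.0, 22.0 and 23.4 FPKM with DMSO and 13.1, 12.2 and 11.4 FPKM with BCT, again with no overlap. It fell by 0.92 on the log2 scale (SE 0.066, 95% interval -1.07 to -0.76, adjusted p = 4.17e-06). The threshold of 0.85 lies inside the interval of SRD5A3 and outside that of SRD5A1. The files give SRD5A3 the same interval as its antisense gene SRD5A3-AS1. The library kit does not keep the strand, so reads from any part where the genes overlap cannot be assigned to one of them, and the extent of that overlap was not tested.

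The log2 ratio of SRD5A3 to SRD5A1 within a sample, which no scaling of the sample can move apart from the small pseudocount, was 0.77, 0.77 and 0.69 with DMSO and 1.16, 1.12 and 1.10 with BCT. All BCT ratios were above all DMSO ratios, by 0.38 in the mean, and the exact two-sided permutation p was 0.1, the smallest that 3 samples against 3 allow. Together the reductases summed to 36.9 ± 1.80 FPKM with DMSO and 17.8 ± 1.13 FPKM with BCT (SD, n = 3). Under equal FPKM sums SRD5A1 (-0.54) and SRD5A3 (-0.15) both lost their calls, although they stood at -1.25 and -0.87 relative to the all-gene median of that scaling. Without MIR6087 in the sums, SRD5A1 kept its call and SRD5A3 (-0.53, or -0.87 relative to the median) lost it. The other classical enzyme of this activity, SRD5A2, the main reductase of the normal prostate, was listed at 0 in all DMSO samples and reached at most 0.029 FPKM with BCT.

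**Figure D2:**
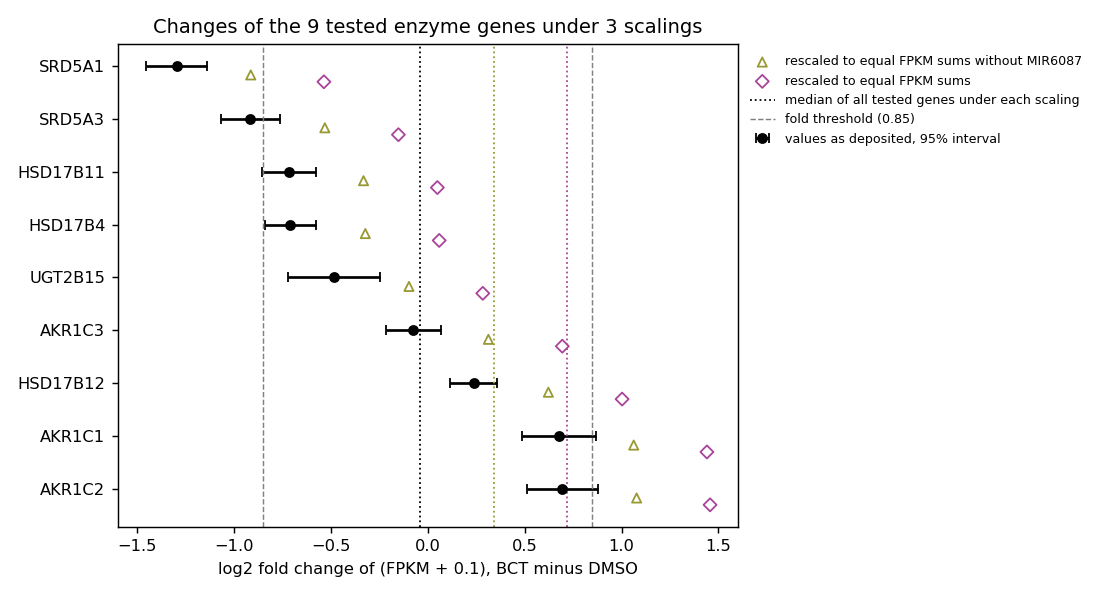
Log2 fold change of the 9 tested genes, BCT minus DMSO, from the values as deposited (black, with 95% intervals) and after rescaling to equal FPKM sums with (diamonds) or without (triangles) MIR6087. Dotted lines mark the median of all genes under each scaling (-0.04, 0.72 and 0.34) and dashed lines the threshold of 0.85. The order of the genes along the axis is nearly the same under the 3 scalings and the sign of the middle genes is not.

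The AKR1C genes lie side by side on chromosome 10 (hg19), AKR1C1 at chr10:5005454-5020158 and AKR1C3 at chr10:5090958-5149878 on the plus strand, with AKR1C2 between them at chr10:5029968-5060225 on the minus strand. AKR1C1, which reduces progesterone and also DHT, measured 8.62, 7.32 and 8.78 FPKM with DMSO and 12.7, 12.8 and 14.1 FPKM with BCT. AKR1C2, the main enzyme that removes DHT by reduction in prostate cells, measured 11.7, 13.2 and 11.8 FPKM with DMSO and 19.9, 18.0 and 21.5 FPKM with BCT. Both were higher in every BCT sample than in any DMSO sample. The log2 fold changes were 0.68 for AKR1C1 (95% interval 0.49 to 0.87, adjusted p = 8.05e-05) and 0.69 for AKR1C2 (95% interval 0.51 to 0.88, adjusted p = 5.52e-05), both under the fold threshold. Rescaled to equal FPKM sums, with or without MIR6087, both passed it (1.44 and 1.46 with MIR6087, 0.72 and 0.74 relative to the median of all genes).

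AKR1C3, which makes testosterone from androstenedione and is raised in many CRPC tumors, measured 91.0, 81.4 and 81.5 FPKM with DMSO and 80.1, 77.0 and 84.1 FPKM with BCT. The groups overlapped, and the log2 fold change of -0.07 (95% interval -0.22 to 0.07) had an adjusted p of 0.294. Its sign turned to 0.69 under equal sums, 0.31 without MIR6087 in them and 0.10 with quantile normalization. Relative to the median of all genes it was then -0.02, -0.03 and 0.07. Within samples, AKR1C3 became less abundant relative to its neighbours. It held 81.8%, 79.9% and 79.8% of the summed FPKM of the 3 genes with DMSO and 71.0%, 71.4% and 70.2% with BCT. The log2 ratio of AKR1C3 to AKR1C1 changed by -0.75 and that to AKR1C2 by -0.77, with no overlap between the groups (exact permutation p = 0.1 for each). The ratio of AKR1C2 to AKR1C1 differed by 0.01 with overlapping groups (exact permutation p = 1). The summed FPKM of the 3 genes, which still depends on the split of shared reads because each gene is scaled by its own length, was 105.1 ± 5.40 FPKM with DMSO and 113.4 ± 5.999 FPKM with BCT, a log2 fold change of 0.11 (95% interval -0.03 to 0.25, adjusted p = 0.117).

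**Figure D3:**
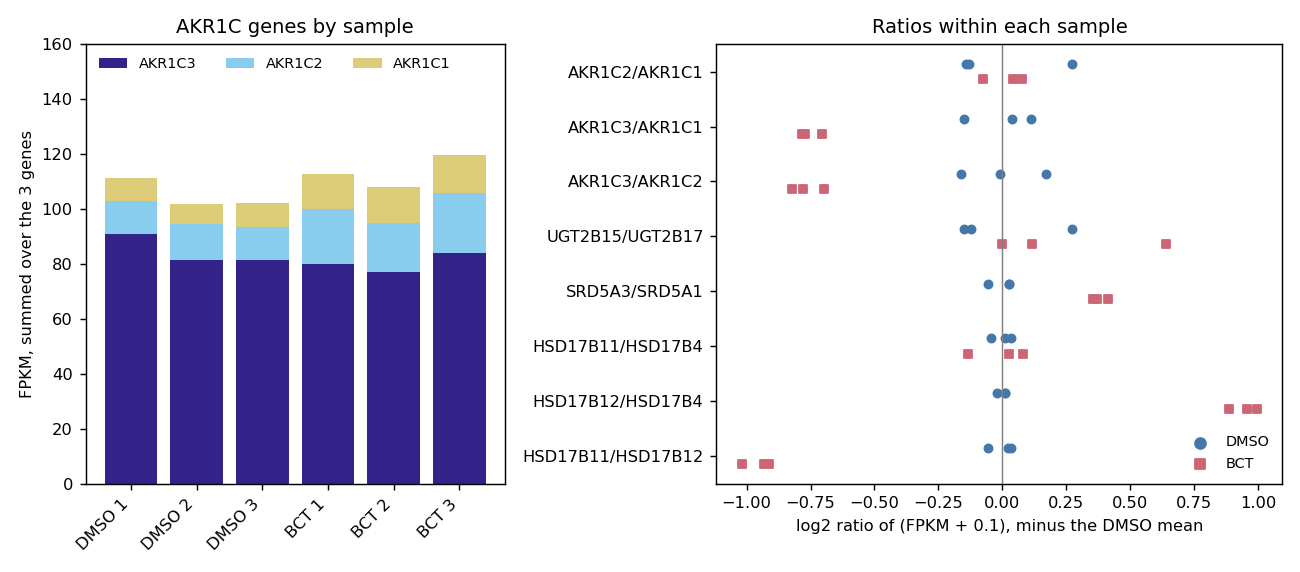
Left, FPKM of AKR1C3, AKR1C2 and AKR1C1 stacked for each sample. Right, the 8 log2 ratios between pairs of genes in each sample, minus the DMSO mean of that ratio. DMSO points are circles and BCT points squares. The stacks keep a like height while the AKR1C3 part shrinks from 80.5% to 70.9% in the mean, and 5 of the 8 ratios separate the groups. Several of the ratios share a gene, so they are not independent. Of single tested genes 85.3% separate the groups, and the share among ratios of other gene pairs was not computed.

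The hydroxysteroid dehydrogenases moved in both directions. HSD17B4, a peroxisomal enzyme that inactivates estradiol and takes part in fatty acid breakdown, is encoded at chr5:118788138-118878030 (plus strand). It measured 101.3, 98.3 and 92.9 FPKM with DMSO and 60.9, 56.4 and 61.7 FPKM with BCT. HSD17B11, a lipid droplet enzyme that oxidizes androstanediol, is encoded at chr4:88257677-88312455 (minus strand). It measured 63.9, 59.6 and 59.5 FPKM with DMSO and 34.7, 37.3 and 39.2 FPKM with BCT. The groups were apart for both genes, and their fold changes were nearly the same. The log2 fold change was -0.71 for HSD17B4 (95% interval -0.84 to -0.58, adjusted p = 6.79e-06) and -0.72 for HSD17B11 (95% interval -0.86 to -0.58, adjusted p = 9.27e-06). Neither reached 0.85, and under equal FPKM sums the signs turned (0.06 and 0.05, or -0.66 and -0.67 relative to the median of all genes).

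HSD17B12, a reductase of the endoplasmic reticulum that works in the elongation of fatty acids, is encoded at chr11:43702143-43878169 (plus strand). It measured 27.8, 27.6 and 26.1 FPKM with DMSO and 31.4, 31.4 and 33.4 FPKM with BCT. The difference was small and larger than the spread within the groups, with a log2 fold change of 0.24 (95% interval 0.12 to 0.36, adjusted p = 0.00276). It passed the fold threshold under equal sums (1.003, or 0.28 relative to the median). The log2 ratio of HSD17B12 to HSD17B4 was -1.86, -1.83 and -1.83 with DMSO and -0.95, -0.84 and -0.88 with BCT. The groups did not overlap, and their means differed by 0.95, the largest upward change among the 8 ratios. The ratio of HSD17B11 to HSD17B12 changed by -0.95 and also separated the groups. The ratio of HSD17B11 to HSD17B4 changed by -0.01 with overlapping groups (exact permutation p = 0.9). The ratios that separated the groups had an exact p of 0.1, or 0.16 after Benjamini-Hochberg adjustment over the 8 ratios, so none could pass 0.05.

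UGT2B15, which conjugates DHT and androstanediol, measured 47.9, 44.4 and 43.95 FPKM with DMSO and 36.5, 27.3 and 34.3 FPKM with BCT. All BCT values were lower, with a wider spread (coefficient of variation 14.7%, against 4.80% with DMSO). The log2 fold change was -0.48 (95% interval -0.72 to -0.25, adjusted p = 0.00229), not called, and it ran from -0.57 to -0.36 with each sample left out. Under equal sums the sign turned (0.28, or -0.44 relative to the median). UGT2B15 held 71.5% ± 1.48 of the summed FPKM of 7 UGT2B genes with DMSO and 67.2% ± 0.988 with BCT (SD, n = 3). UGT2B17, the close copy that also conjugates testosterone and DHT, had 0.605, 0.773 and 0.75 FPKM in the DMSO samples and 0.498, 0.386 and 0.291 FPKM in the BCT samples. The BCT values were again all lower, and the difference of the means on the log2 scale was -0.73. The gene was under the limit for testing, and in the fit without that limit its limma adjusted p was 0.0131, with the fold under the threshold. UGT2B15 was 65.1 ± 12.3 times as high as UGT2B17 with DMSO and 87.3 ± 26.6 times with BCT, and the log2 ratio overlapped between the groups (exact permutation p = 0.5). The summed FPKM of the pair had a log2 fold change of -0.49 (adjusted p = 0.00204), not called.

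Around the 10 enzymes, 52 further genes of steroid synthesis, conversion, conjugation and transport were examined. Only 24 reached the testing limit, and of the other 28, 16 had a mean under 0.1 FPKM. Among these were the genes that begin classical steroid synthesis, named here after their values were seen. CYP11A1, which cleaves the side chain of cholesterol, reached at most 0.025 FPKM in any sample, and CYP17A1, which makes androgen precursors, at most 0.053 FPKM. HSD3B1 and HSD3B2, the dehydrogenases that convert precursors to androstenedione, reached at most 0.016 and 0.058 FPKM. CYP19A1, which turns androgens into estrogens, reached at most 0.057 FPKM. Transcripts of these enzymes were thus listed near 0 in both groups, unlike those of SRD5A1, SRD5A3 and UGT2B15. At these low values, CYP17A1 and CYP19A1 were higher in every BCT sample than in any DMSO sample. The reads behind such values are unknown.

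Of the 24 tested genes, 6 were called lower and 2 higher, beside 17.8% and 13.9% of all genes, and the median log2 fold change was -0.37. HSD17B6 and CYP3A5 passed the limit only through the group where they were high, and without them 5 were lower and 1 higher. CYB5A, the cytochrome b5 that supports CYP17A1 and other P450 enzymes, measured 81.4, 77.7 and 84.4 FPKM with DMSO and 20.8, 16.3 and 17.1 FPKM with BCT. It fell by 2.17 on the log2 scale (SE 0.089, adjusted p = 5.41e-07), to 22.3% of its DMSO level, and stayed called under all alternatives run. TSPO, a cholesterol-binding protein of the outer mitochondrial membrane, fell from 174.6 ± 9.16 to 71.9 ± 6.55 FPKM (log2 fold change -1.28). HSD17B7, which acts in cholesterol synthesis and reduces estrone, fell from 25.6 ± 1.96 to 10.8 ± 0.139 FPKM (-1.24), and HSD17B6, which can regenerate DHT from androstanediol, had 1.81 ± 0.0659 FPKM with DMSO and 0.735 ± 0.155 FPKM with BCT (-1.21, or -0.70 and not called with a pseudocount of 1). The last 2 in this direction were SUMF1 (-1.05), which activates sulfatases such as steroid sulfatase, and H6PD (-0.99), which supplies NADPH inside the endoplasmic reticulum. TSPO, HSD17B7, HSD17B6, SUMF1 and H6PD lost their calls under equal sums, where they stood between -1.23 and -0.96 relative to the median of all genes.

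UGDH, which makes the glucuronic acid donor used by UGT2B enzymes, measured 61.8, 61.9 and 57.8 FPKM with DMSO and 110.1, 123.0 and 119.3 FPKM with BCT. It rose by 0.95 on the log2 scale (SE 0.058, adjusted p = 1.89e-06), in the opposite direction from UGT2B15. CYP3A5, which hydroxylates testosterone, was near zero with DMSO (0.07, 0.229 and 0.144 FPKM) and measured 2.06, 2.97 and 2.92 FPKM with BCT. Its log2 fold change of 3.51 rested on these low DMSO values and ranged from 1.66 with a pseudocount of 1 to 4.19 with a pseudocount of 0.01. It entered the test only through its BCT level, so its call is no support for a difference.

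**Figure D4:**
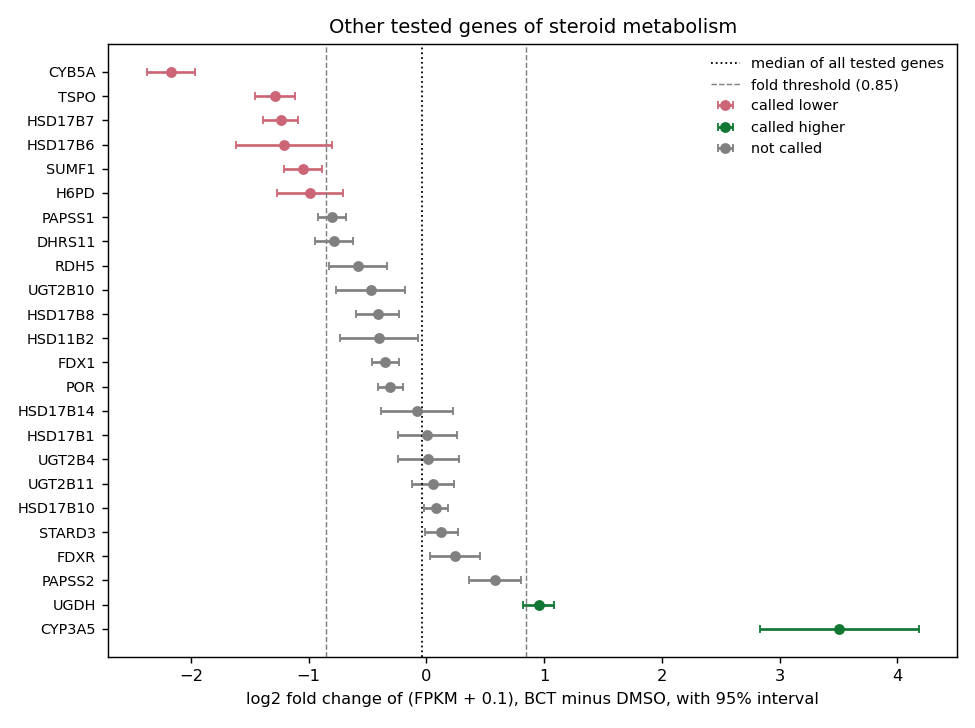
Log2 fold change with 95% interval of the 24 tested genes of the wider steroid list, sorted from the lowest, with called genes in color, the median of all genes as a dotted line and the threshold of 0.85 as dashed lines. CYB5A stands apart at the low end (-2.17) and CYP3A5 at the high end (3.51).

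AKR1C1, AKR1C2 and AKR1C3 are textbook targets of NRF2, so 18 other NRF2 targets were examined beside them. Of the 17 tested, 4 were called lower and 3 higher (beside 17.8% and 13.9% of all genes), and their median log2 fold change was -0.06. The called genes pointed in both directions. OSGIN1, an oxidative stress-induced growth regulator, rose from 2.105 ± 0.231 to 9.65 ± 0.651 FPKM (2.15), HMOX1, which degrades heme, from 2.21 ± 0.290 to 9.04 ± 2.94 FPKM (1.95), and SLC7A11, the cystine transporter, from 7.96 ± 1.04 to 22.7 ± 2.03 FPKM (1.502). FTL, the ferritin light chain, fell from 667 ± 51.7 to 171.5 ± 24.0 FPKM (-1.96), and GCLC, the catalytic subunit of glutathione synthesis, from 37.6 ± 1.72 to 15.6 ± 1.84 FPKM (-1.27). Under equal sums the counts were 1 lower and 8 higher, beside 668 lower and 5609 higher of all 12729 tested genes. Whether AKR1C1 and AKR1C2 differ from the list was not tested.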

How the data were processed

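RNA of the 6 samples was sequenced with an unstranded kit, and the authors deposited FPKM values for each gene on hg19. The labels' processing notes name CASAVA, Trimmomatic 0.38, HISAT2 and HTSeq, and the methods name StringTie for FPKM. The annotation and the gene-level test are not given in the sources used here. Columns other than FPKM were not used.

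Groups were taken from the labelled agent. From the deposited FPKM values, log2(FPKM + 0.1) of genes whose mean reached 1 FPKM was tested with limma 3.58.1 in R 4.3.3 (trended eBayes, Benjamini-Hochberg over 12729 genes). A pseudocount understates changes of low genes. Calls needed an absolute log2 fold change above 0.85, the cutoff of the study, and an adjusted p below 0.05. Ratios within samples were compared by exact permutation over 20 assignments. No count test was run, since only the relative depth of the samples can be read from FPKM. The steps were tested on simulated data.

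The enzymes, gene lists and tests were chosen with earlier results of these data known. All 10 enzymes are named, as are called genes of the wider steroid list (up to 8 per direction), called NRF2 targets (up to 3 per direction) and markers of other cell types above 1 FPKM. MIR6087 and the steroid genes under the testing limit were named after their values were seen. Some genes that the rule covers are not reported here. Alternatives covered the pseudocount, filter, scaling, variance model, adjusted p, replicate block and each sample left out. Positions have 1 added to the listed start, since 7961 of 22088 listed starts then equal a GENCODE (release lifted to GRCh37) transcript start, against 857 without. Coding sequence and stretches are from GENCODE, promoters from RefSeq.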

Additional observations from a re-analysis of the deposited data

How the results depend on the processing

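With the deposited values 2 enzymes were called lower and 0 higher. Rescaled to equal FPKM sums, 0 were lower and 3 higher, and without MIR6087 in the sums 1 was lower and 2 were higher. Over all 12729 tested genes, equal sums gave 668 lower and 5609 higher. Without MIR6087 in the sums, 1208 of all tested genes were lower and 3369 higher. Under equal sums the signs of AKR1C3 (0.69), HSD17B4 (0.060), HSD17B11 (0.050) and UGT2B15 (0.28) turned, and AKR1C3 also turned without MIR6087 (0.31) and with quantile normalization (0.10). These rescalings raise the median of all genes by their construction, to 0.72 and 0.34. Upper quartile and median of ratios scaling turned no sign. With these scalings and with quantile normalization 2 enzymes were called lower and 0 higher. In the wider steroid list, where 6 genes were lower and 2 higher, equal sums gave 1 lower and 5 higher, no filter on low values 6 higher (more genes tested, with 2657 of 21543 higher over all) and a mean of at least 5 FPKM 1 higher (fewer genes tested). In the NRF2 list equal sums gave 1 lower and 8 higher, and 3 were lower and 5 higher without MIR6087. These counts stand beside the counts over all genes given above for the same rescalings. With a pseudocount of 1, HSD17B6 (-0.70) and H6PD (-0.82) missed the fold threshold, UGT2B17 differed by -0.30, and the ratio of UGT2B15 to UGT2B17 changed by -0.17 in place of 0.25. With each sample left out, 2 enzymes were lower and 0 higher throughout, and SRD5A3 ran from -0.97 to -0.87. With the replicate number as a block, 2 enzymes were again called lower and 0 higher, and over all genes 2266 lower and 1767 higher. Same-numbered samples had deviations from their group means that correlated at 0.116, 0.0328 and 0.0342. Those of other-numbered samples correlated at -0.115 to 0.0740. The numbers were not taken as pairs, and these values do not settle whether the samples are paired. Reads behind low values such as UGT2B17 are unknown, which limits what can be said of them.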

Other observations

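Some genes under the testing limit also had BCT and DMSO values that did not overlap. Those given with values below were named after their values were seen. Others under the limit did not overlap either. Among them were HSD17B13, RDH16, SULT2B1, CYP17A1 and CYP19A1 (higher with BCT) and SULT1E1 and SLCO2B1 (lower with BCT). No overlap was the rule in these data, at 85.3% of the tested genes. The share among all genes under the limit was not computed. HSD17B3, the main testosterone-making dehydrogenase of the testis, had 0.052, 0.148 and 0.03 FPKM in the DMSO samples and 0.52, 0.93 and 1.296 FPKM in the BCT samples. AKR1C4, the liver member of the AKR1C family, had 0.765, 0.39 and 0.562 FPKM in the DMSO samples and 0.887, 0.964 and 1.02 FPKM in the BCT samples. UGT2B7, a further glucuronosyltransferase of androgens, had 0.336, 0.363 and 0.383 FPKM in the DMSO samples and 0.664, 0.78 and 0.827 FPKM in the BCT samples. UGT2B28, of the same family, went the other way, with 0.735, 1.09 and 0.688 FPKM with DMSO and 0.543, 0.528 and 0.427 FPKM in the BCT samples. SLCO1B3, an organic anion transporter that takes up testosterone, was listed at 0 in all DMSO samples and at 0.167, 0.188 and 0.218 FPKM in the BCT samples. STS, which frees steroids from their sulfates, had 1.10, 1.12 and 1.22 FPKM with DMSO and 0.736, 0.66 and 0.785 FPKM in the BCT samples. The number of reads behind these values is unknown.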
